A study of Drosophila melanogaster with 6 samples.

Results

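The let-7 complex is the group of 3 hairpin precursors (dme-mir-100, dme-let-7 and dme-mir-125, here without the species prefix) that flies transcribe together. Its rows were taken from the deposited count table by precursor name with both arms included, which gave 6 of 474 rows and 3 of 256 precursors. Small RNA had been sequenced from ovaries of 7-day-old adult *Drosophila melanogaster* raised at the same temperature, with 2 libraries for each of 3 genotypes. The control was w1118, a white-eyed strain that is also the background named for both mutants. The wh7 flies carried an allele of wuho, a WD40-repeat gene needed in the germline. In the mei-p26 flies the mutated gene was mei-P26, whose TRIM-NHL protein restrains growth of germline cells and has been tied to miRNA activity. The labels do not name the mei-P26 allele, how many flies made up a library, or whether the duplicates came from separate flies. All p-values therefore rest on the spread between libraries that may be technical duplicates. A miRNA library does not measure the messenger RNA of either gene, so the mutations could not be checked.

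The 3 hairpins lie side by side on the left arm of chromosome 2, in the order mir-100, let-7, mir-125, within the gene of their shared primary transcript, lncRNA:let7C (RefSeq annotation of genome release 6, used for order alone). Transcription of the complex is switched on by the steroid hormone ecdysone at the end of larval life and continues in adult muscle and nervous tissue. let-7 represses the transcription factor abrupt in developing muscle, and let-7 and miR-125 act together on chinmo in neurons of the mushroom body. In the ovary, let-7 has been placed downstream of ecdysone signalling in somatic cells of the germline stem cell niche. miR-125 is the fly relative of *Caenorhabditis elegans* lin-4, and miR-100 belongs to the same wider family as miR-10. Each hairpin gives a 5p and a 3p arm, and the 5p arm is the guide strand that loads into Argonaute.

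Library totals ran from 144175 to 249262 counts, and a count of 0 in 1 library would have allowed up to 3 counts, or 12.04 to 20.8 CPM (each count over its library's total, times a fixed factor). Intervals given here are exact Clopper-Pearson intervals at 95% and cover counting error only. PCR copies may be included in the counts, in which case the intervals are too narrow. Of the miRNAs listed as ovary markers (bantam, miR-184, miR-318, miR-989 and miR-994, 10 arms), 0 or 1 arm was at 0 in a library. Their summed level is given after the TMM scaling described below. It was 375809 to 455255 CPM in w1118, 359466 to 379087 in wh7 and 189748 to 235456 in mei-p26. The markers did not move alike. From w1118 to mei-p26, the mean of miR-318-3p went from 137868 to 24994 CPM and that of miR-994-5p from 46600.5 to 8846. The means of bantam-3p were 51286 and 44071 CPM in these groups, and those of miR-989-3p 161457 and 122289. miR-184-5p was higher in mei-p26, at 381 and 913 CPM. Nervous system markers (miR-124, miR-137, miR-210 and miR-219, 8 arms) were near absent, with 1 to 8 counts in a library, and both arms of miR-124 had 0 counts in every library. Levels below are CPM after TMM scaling, which sets libraries to a common level using the bulk of miRNAs. In bulk ovaries, fewer cells of a type and less of a miRNA per cell cannot be told apart.

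The complex as a whole made up between 1.08% and 1.49% of a library. It took 1.08% (interval 1.03 to 1.13) and 1.35% (1.29 to 1.41) of the counts in w1118. In wh7 its share was 1.15% (1.10 to 1.21) and 1.12% (1.08 to 1.17), and in mei-p26 1.27% (1.22 to 1.31) and 1.49% (1.44 to 1.53). The wh7 libraries lay between those of w1118, and 1 of the mei-p26 libraries lay above all others.

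let-7-5p, the guide of the let-7 hairpin, was the main product and was lower in all 4 mutant libraries than in either control, by an amount that did not pass the test. Its counts were 1390 and 1551 in the controls, 1241 and 1830 in the wh7 libraries, and 2092 and 2496 in those of mei-p26. Scaled, these were 10383 and 11123 CPM in w1118, 8472 and 8241 CPM in wh7, and 8582 and 8658 CPM in mei-p26. It ranked between 20 and 28 among all rows of a library. The group means were 10753 ± 523 CPM for w1118, 8356 ± 163 for wh7 and 8619.95 ± 53.8 for mei-p26 (SD, n = 2). The log2 fold change was -0.36 ± 0.23 in wh7 (edgeR quasi-likelihood test, adjusted p = 0.301) and -0.32 ± 0.23 in mei-p26 (adjusted p = 0.290). Here and below, the error of a fold change is an approximate SE, its size over the square root of the F statistic. Both comparisons share the w1118 libraries. Groups without overlap and lower in the mutant were common among the 150 rows tested, 25.3% in wh7 and 29.3% in mei-p26. The separation of mei-p26 also depended on the scaling: as the authors' CPM, without TMM, its libraries held 9124 and 10014 CPM and w1118 9094 and 10758 CPM, and the log2 fold change was -0.05 ± 0.20. Between the mutants the difference was 0.04 ± 0.22 (adjusted p = 0.923), with its sign turned under upper-quartile scaling, among other settings.

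miR-125-5p, the guide of the mir-125 hairpin, was higher in every mutant library than in either control. Counts of 190 and 327 in w1118 stood against 402 and 611 for wh7, and 692 and 1027 for mei-p26. After scaling, w1118 held 1419 and 2345 CPM, wh7 2744 and 2752 CPM, and mei-p26 2839 and 3562 CPM. No library of a mutant overlapped the controls, as was so, in the same direction, for 34% of tested rows in wh7 and 36% in mei-p26. The controls themselves lay 0.72 apart on the log2 scale. In mei-p26, miR-125-5p rose by 0.77 ± 0.29 on the log2 scale, from a mean of 1882 ± 655 to 3201 ± 512 CPM (SD, n = 2; edgeR quasi-likelihood test, adjusted p = 0.0440). It was the only one of the 5 tested arms of the complex to pass in any comparison, where 34% of the 150 rows passed in mei-p26, 21.3% as higher. With 1 call among 5 arms, the share is near that background and is no result about the complex. In wh7 the mean was 2748 ± 5.14 CPM and the log2 fold change 0.55 ± 0.29 (adjusted p = 0.210), where 15.3% of rows passed. The mutants differed from each other by 0.22 ± 0.28 (adjusted p = 0.639), where 27.3% passed. Of the 5 tested arms, 0 passed in wh7 and 0 between the mutants, whether tested by edgeR, by DESeq2 or by limma-voom, and each tool gave 0 arms with an unadjusted p under 0.05. For let-7-5p and miR-125-5p both mei-p26 libraries lay above both of wh7, as they did for 33.3% of tested rows.

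The call of miR-125-5p in mei-p26 was kept under 8 of 19 alternatives (the let-7-5p scale described below among them), with adjusted p from 0.0170 to 0.427, and it was higher in mei-p26 under all 19. Leaving out w1118 replicate 1, the lower control, gave 0.43 ± 0.36 (adjusted p = 0.427), and leaving out mei-p26 replicate 2, the highest library, gave 0.57 ± 0.31 (adjusted p = 0.229). It was also lost without wh7 replicate 1 (0.57, adjusted p = 0.237) or wh7 replicate 2 (0.77, adjusted p = 0.0832), which are in neither group compared but enter the fit through the filter on low counts, the scaling, the shared estimate of spread and the adjustment over rows. The wh7 libraries were the closest to each other, so the shared estimate of spread rests in part on a tighter group. Over rows averaging 50 counts or more, the median log2 gap between replicates was 0.17 in wh7, 0.42 in w1118 and 0.35 in mei-p26. With only the groups compared in the fit, the call was also lost. In the authors' deposited table, miR-125-5p was 2.03-fold higher in mei-p26 with an adjusted p of 0.188, and 1.53-fold higher in wh7 with an adjusted p of 0.546.

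**Figure D1:**
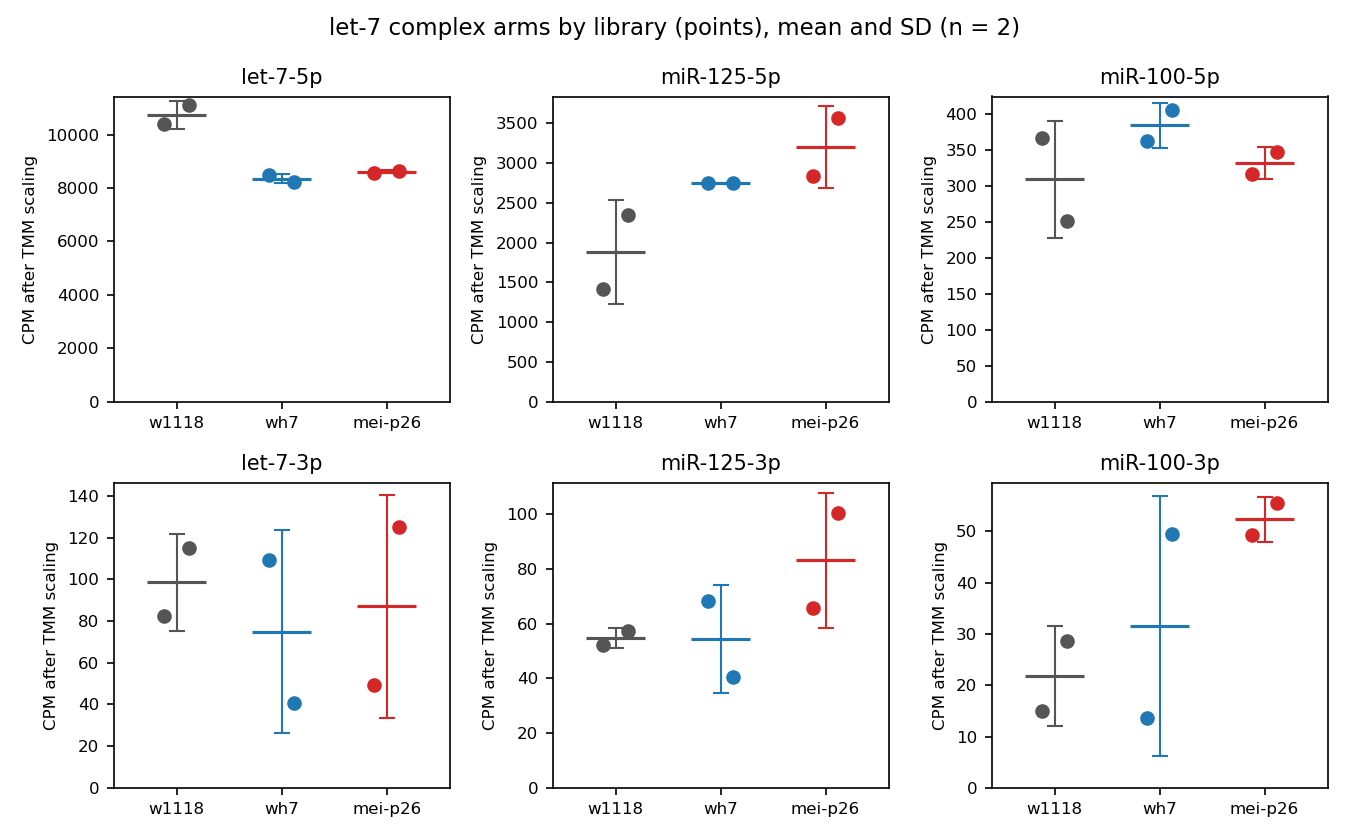
Level of each arm of the let-7 complex (vertical axis, CPM after TMM scaling, from 0) in the 3 genotypes (horizontal axis). Points are libraries, with replicate 1 on the left, and bars are the mean and SD of 2 libraries; all 4 mutant libraries lie below w1118 for let-7-5p and above it for miR-125-5p, while the 3p arms and miR-100-5p overlap in most comparisons.

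The main muscle marker was also higher in both mutants. The list of muscle miRNAs (miR-1 and miR-133, 4 arms) summed to 11001 to 16874 CPM in the controls, 23114 to 24097 in wh7, and 22652 to 27629 in mei-p26. Nearly all of it was miR-1-3p, which is made in muscle. Where 15.3% of tested rows passed in wh7 and 34% in mei-p26, this arm passed in both. It rose by 0.76 ± 0.25 in wh7 (edgeR, adjusted p = 0.0386) and by 0.85 ± 0.25 in mei-p26 (adjusted p = 0.0106) on the log2 scale. With each library left out in turn, these calls were kept in 2 and 3 of 6 fits, and both were lost when replicate 2 of w1118, replicate 1 of wh7 or replicate 2 of mei-p26 was left out, the one in wh7 also without replicate 2 of wh7 (adjusted p up to 0.543 and 0.353). The other muscle miRNA, miR-133, had 3 or 4 counts per genotype on its 3p arm and 0 counts on its 5p arm. Within the control group, miR-1-3p was at 16829 CPM in w1118 replicate 1 and 10886 in replicate 2, while miR-125-5p was lower in replicate 1. The part of muscle in the values of the complex was not tested. Gut and Malpighian tubule miRNA (miR-281, 3 arms) summed to 2114 and 2352 CPM for w1118, 3939 and 4674 for wh7, and 238 and 309 for mei-p26.

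miR-100-5p, the guide of the first hairpin, was scarcer and did not pass in any comparison. The w1118 libraries held 49 and 35 counts, those of wh7 53 and 90, and those of mei-p26 77 and 100. Those counts correspond to 366 and 251 CPM in w1118, 362 and 405 CPM in wh7, and 316 and 347 CPM in mei-p26. Both mei-p26 libraries lay inside the span of w1118, and wh7 lay above mei-p26, as did 27.3% of tested rows. The log2 fold change was 0.32 ± 0.40 in wh7 (edgeR, adjusted p = 0.637), 0.11 ± 0.40 in mei-p26 (adjusted p = 0.872) and -0.21 ± 0.39 between the mutants (adjusted p = 0.748). At this depth, with an SE of about 0.4, changes as large as that of miR-125-5p could not be told from none. In w1118 the order of levels was let-7-5p, miR-125-5p, miR-100-5p, and it was the same in each of the 6 libraries.

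**Figure D2:**
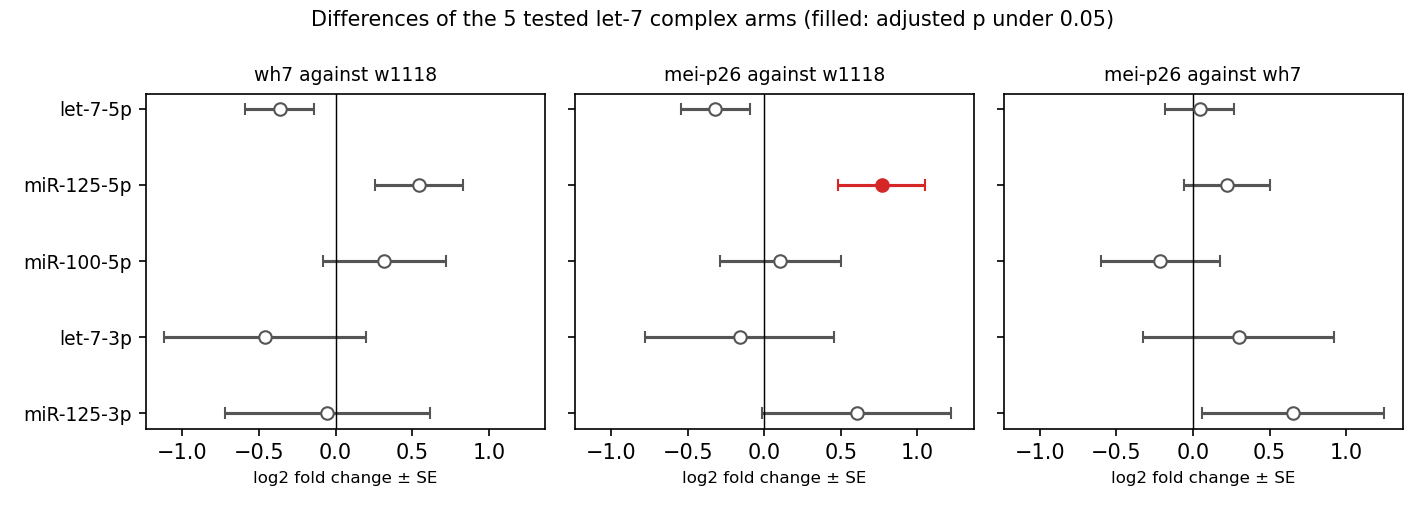
Log2 fold change with its SE (horizontal axis) of the 5 tested arms (vertical axis) in each of the 3 comparisons. Only miR-125-5p in mei-p26 against w1118 (0.77) is filled, which marks an adjusted p under 0.05; let-7-5p lies below 0 against w1118 in both mutants.

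The 3p arms, which are mostly discarded when the guide is loaded, were rare. For let-7-3p, the controls had 11 and 16 counts, wh7 had 16 and 9, and mei-p26 had 12 and 36. The groups overlapped throughout, and its log2 fold changes were -0.46 ± 0.66 in wh7 (edgeR, adjusted p = 0.698), -0.16 ± 0.62 in mei-p26 (adjusted p = 0.872) and 0.30 ± 0.62 between the mutants (adjusted p = 0.791). miR-125-3p was counted 7 and 8 times in the controls, 10 and 9 times in wh7, and 16 and 29 times in mei-p26. Its scaled level was 52.3 and 57.4 CPM for w1118, 68.3 and 40.5 for wh7, and 65.6 and 101 for mei-p26. Here mei-p26 lay above the controls, as did 36% of tested rows, and wh7 lay on both sides of them. The log2 fold change was 0.60 ± 0.62 in mei-p26 (edgeR, adjusted p = 0.468), -0.05 ± 0.67 in wh7 (adjusted p = 0.983) and 0.66 ± 0.59 between the mutants (adjusted p = 0.472). miR-100-3p was under the minimum count and was not tested. The controls had 2 and 4 counts of it, wh7 2 and 11, and mei-p26 12 and 16. The mei-p26 libraries were deeper than the controls, so raw counts cannot compare them. After scaling, w1118 stood at 14.9 and 28.7 CPM, wh7 at 13.7 and 49.5, mei-p26 at 49.2 and 55.5. Both mei-p26 libraries remained above the controls, a separation shared by 36% of tested rows, while wh7 lay on both sides of them. With so few counts, this separation is no result.

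Arm use within a hairpin needs no scaling between libraries. The 3p arm of let-7 held 0.489% to 1.42% of the hairpin's counts over the 6 libraries, and that of mir-125 1.45% to 3.55%. In mir-100 the 3p arm held 3.92% and 10.3% in the controls, 3.64% and 10.9% for wh7, and 13.5% and 13.8% for mei-p26. The intervals of mir-100 were wide: 2.87 to 24.2% for w1118 replicate 2 and 7.17 to 22.4% for mei-p26 replicate 1 overlap. The log2 ratio of 5p over 3p could be tested for let-7 and mir-125 among 50 precursors with enough counts on each arm. For let-7 it differed by 0.17 ± 0.59 in wh7 and 0.02 ± 0.59 in mei-p26 (limma, adjusted p = 0.851 and 0.975). For mir-125 it differed by 0.68 ± 0.40 in wh7 and 0.34 ± 0.40 in mei-p26 (limma, adjusted p = 0.400 and 0.609). Between the mutants the differences were -0.15 ± 0.59 and -0.34 ± 0.40 (limma, adjusted p = 0.938 and 0.809). Of these 2 hairpins, 0 passed with limma in any comparison, with 0 at an unadjusted p under 0.05, and of the 50 precursors 2% passed in each mutant against w1118 and 0% between the mutants.

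Shares within the complex need no scaling between libraries either. let-7-5p made up 84.3% (interval 82.4 to 86.0) and 79.9% (78.1 to 81.7) of the complex's counts in w1118. Its share was 71.98% and 71.5% for wh7, and 72.1% and 67.4% for mei-p26, with the highest upper bound among these 4 libraries at 74.1%. miR-125-5p took 11.5% and 16.8% in the controls, 23.3% and 23.9% for wh7, and 23.9% and 27.7% for mei-p26. Every mutant library lay below the controls for let-7-5p and above them for miR-125-5p. These separations are not independent. Together these arms hold most of the complex's counts, so a lower share of let-7-5p largely sets a higher share of miR-125-5p. The ratio below rests on the same counts, and how common its separation was among other rows is given there. The intervals cover counting error alone, and the controls lay outside each other's intervals for miR-125-5p (10.02 to 13.2% and 15.2 to 18.6%), so they do not set the spread between libraries. miR-100-5p kept to 1.80% to 3.52% in all 6 libraries.

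**Figure D3:**
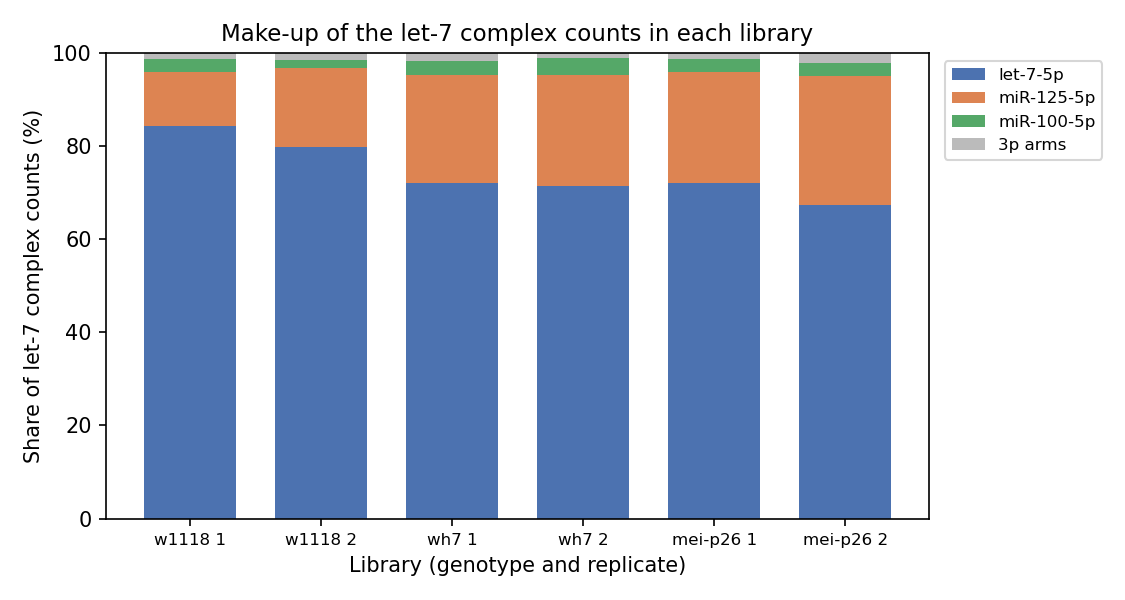
Share of the let-7 complex counts (vertical axis, %) taken by let-7-5p, miR-125-5p, miR-100-5p and the 3p arms together in each of the 6 libraries (horizontal axis). let-7-5p takes 79.9% or more in w1118 and 72.1% or less in the mutants, and miR-125-5p takes most of the remainder.

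As a ratio of counts within 1 library, let-7-5p over miR-125-5p was 7.32 (interval 6.28 to 8.56) and 4.74 (4.21 to 5.36) in w1118. It was 3.09 (2.76 to 3.46) and 2.995 (2.73 to 3.29) in wh7, and 3.02 (2.77 to 3.30) and 2.43 (2.26 to 2.62) in mei-p26. The intervals of the 2 controls did not overlap each other, and both controls lay above all 4 mutant libraries. Such a separation was common: the count over the let-7-5p count was higher without overlap in wh7 for 55.7% and in mei-p26 for 47.7% of the other 149 rows. On the log2 scale the ratio averaged 2.56 ± 0.44 in the controls, 1.60 ± 0.03 in wh7 and 1.44 ± 0.22 in mei-p26 (SD, n = 2). With 2 against 2 libraries, an exact permutation test cannot give a p below 0.333, and no test was run on the ratio alone. Different ligation efficiency of the 3 sequences enters each ratio, so a ratio is read here between libraries and not as a number of molecules.

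The ratio can also be expressed in the fit across all rows by scaling each library to its let-7-5p count. This alternative was chosen after these values were seen and restates the ratio, so it is no independent test of it. On this scale the median over all rows was 0.46 in wh7 and 0.42 in mei-p26 (log2 fold change), and 16.8% and 37.6% of the 149 rows passed. Relative to let-7-5p, miR-125-5p was higher by 1.09 ± 0.26 on the log2 scale in mei-p26 (edgeR, adjusted p = 0.0209) and by 0.92 ± 0.26 in wh7 (adjusted p = 0.0664). The call in mei-p26 was lost without w1118 replicate 1 (0.82 ± 0.25, adjusted p = 0.0775) or mei-p26 replicate 2 (0.93 ± 0.30, adjusted p = 0.0841). In wh7, leaving out w1118 replicate 2 brought it past the threshold (1.27 ± 0.26, adjusted p = 0.0477). For miR-100-5p relative to let-7-5p, the values were 0.42 ± 0.32 in mei-p26 (edgeR, adjusted p = 0.355), equal to the median row, and 0.67 ± 0.32 in wh7 (adjusted p = 0.195).

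let-7-5p over miR-100-5p was 28.4 and 44.3 in the controls, 23.4 and 20.3 for wh7, and 27.2 and 25.0 for mei-p26. All mutant libraries lay below the controls. Such a separation relative to let-7-5p was common, at 55.7% of the other rows in wh7 and 47.7% in mei-p26. The interval of w1118 replicate 1 (21.3 to 38.5) also held 3 of the 4 mutant ratios. miR-125-5p over miR-100-5p was 3.88 (2.82 to 5.42) and 9.34 (6.58 to 13.6) in w1118, so far apart that they enclosed both wh7 libraries (7.58 and 6.79). The mei-p26 libraries, at 8.99 and 10.3, also overlapped them.

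**Figure D4:**
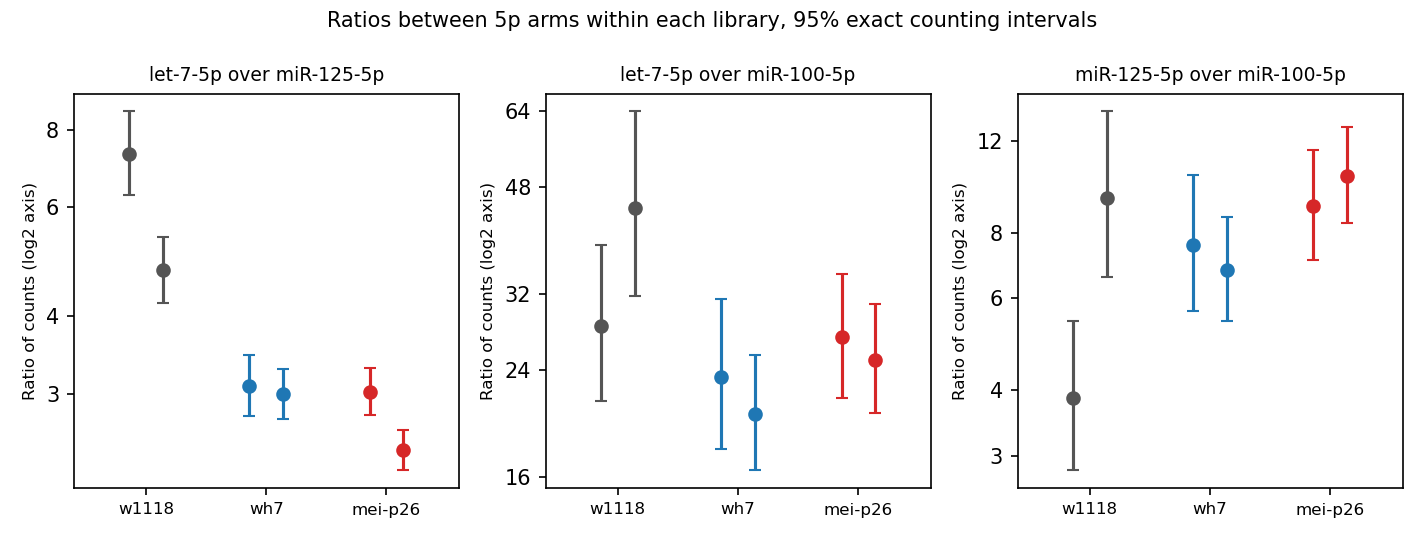
Ratio of counts between 2 of the 5p arms within each library (vertical axis, log2 scale) in the 3 genotypes (horizontal axis). Points are libraries and bars are 95% exact counting intervals; let-7-5p over miR-125-5p is 4.74 or more in w1118 and 3.09 or less in the mutants, while the ratios to miR-100-5p have wider intervals.

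Replicates of the 3 guides agreed to different degrees. The let-7-5p libraries lay apart after TMM scaling on the log2 scale by 0.10 for w1118, 0.04 for wh7 and 0.01 for mei-p26, and of 96 rows averaging 50 counts or more, 86, 81 and 93 had a wider gap. As CPM without TMM its gaps were 0.24, 0.05 and 0.13, with a wider one in 64, 78 and 76 rows. miR-125-5p had a gap of 0.72 in w1118, where 20 of 96 rows had a wider one and the median was 0.42. In wh7 its gap was 0.004 and in mei-p26 0.33, against medians of 0.17 and 0.35. For miR-100-5p the gaps were 0.54, 0.16 and 0.14 in the same order of genotypes, and 34, 48 and 78 rows had a wider one.

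Some other clusters with a shared transcript give a rough scale for a difference between co-transcribed guides. The widest difference between log2 fold changes of the main arms of the let-7 complex was 1.08 in mei-p26 and 0.91 in wh7, in both from let-7-5p to miR-125-5p. In mei-p26 the corresponding range was 0.76 for miR-12, miR-283 and miR-304, 0.64 for miR-277, miR-34 and miR-317, 0.48 for the cluster of miR-9c, 0.38 for miR-275 and miR-305, and 0.25 for miR-11 and miR-998. In wh7 the miR-277 cluster spanned 1.67 and the miR-12 cluster 0.98, both wider than the let-7 complex, and the other 3 spanned 0.09 to 0.48. These ranges carry no test, and larger clusters have more chances of a wide one. The clusters were picked after values were seen. Ranges of further clusters, such as the testis-enriched one of miR-984, were not worked out. The let-7 complex therefore had the widest range in mei-p26 only among the clusters named here, which does not show it to be unusual.

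The profile of each guide over the 6 libraries was set beside those of 93 other tested rows averaging 50 counts or more, as the root mean square difference of centred log2 CPM. let-7-5p was most like miR-996-3p (0.08), miR-995-3p (0.11) and miR-92a-3p (0.13). miR-125-5p lay nearest to miR-276a-3p (0.10), the mirtron product miR-1003-3p (0.16) and miR-34-5p (0.18), and miR-100-5p to miR-283-5p (0.16), miR-305-5p (0.16) and miR-962-5p (0.17). The guides of the complex were not each other's nearest. miR-125-5p stood 0.53 from let-7-5p, and 61 of the 93 rows were nearer to let-7-5p than that; the median row stood 0.42 away. miR-100-5p stood 0.34 from let-7-5p, with 39 of 93 rows nearer, and 0.46 from miR-125-5p, with 28 of 93 rows nearer to miR-125-5p than that.

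Among miRNAs linked to ecdysone (miR-8, miR-14 and miR-34, all 6 arms tested), 1 rose and 0 fell in mei-p26 and 0 passed in wh7 or between the mutants, where 34%, 15.3% and 27.3% of all rows tested passed. The list was drawn up from general knowledge, with earlier results of these data known. In wh7 and between the mutants, DESeq2 and limma-voom also gave 0 calls. The arms at an unadjusted p under 0.05 numbered 1 in wh7 and 1 between the mutants by edgeR, 0 and 0 by DESeq2, and 1 and 3 by limma-voom. The riser was miR-34-5p, a miRNA that ecdysone represses as it induces the let-7 complex. It was at 3892 and 5299.8 CPM in the controls, 5898 and 5147 for wh7, and 7318 and 8290.3 for mei-p26 (log2 fold change 0.76 ± 0.25, edgeR, adjusted p = 0.0205). This call was kept without mei-p26 replicate 1 and lost without any other library, at adjusted p up to 0.266. miR-8-3p, which acts in growth and steroid signalling, had a log2 fold change of -0.54 ± 0.23 in mei-p26 (adjusted p = 0.0781), and miR-14-3p, which regulates the ecdysone receptor, 0.05 ± 0.24 (adjusted p = 0.895). The median log2 fold change of the list was 0.07 in mei-p26 and 0.16 in wh7, beside 0.08 and 0.08 over all rows tested and 0.11 and -0.05 over the 5 tested arms of the complex.

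miR-10 and miR-984 are sequence relatives of the complex through their 5p arms. Of their 4 tested arms, 1 passed as higher in wh7 and 2 in mei-p26, and between the mutants 2 were higher and 1 lower in mei-p26. The call in wh7 and the lower one between the mutants were of miR-10-3p, which is not a related arm. Over all rows tested, 15.3%, 34% and 27.3% passed in these comparisons. miR-10, of the wider family of miR-100, had 24 counts of its 3p arm in the controls, 164 in wh7 and 88 in mei-p26, and that arm rose in wh7 by 2.29 ± 0.53 on the log2 scale (edgeR, adjusted p = 0.00408). With replicate 2 of w1118 left out it no longer passed (adjusted p = 0.0926). Its 5p arm, the one related to miR-100-5p, was at 74.7 and 93.2 CPM in the controls, 184 and 261 for wh7, and 53.3 and 128 for mei-p26, and did not pass in wh7 (1.41 ± 0.56, adjusted p = 0.0978). miR-984, a miRNA of a testis-enriched cluster whose 5p arm begins much like let-7, had 1 count of that arm in the controls, 2 in wh7 and 58 in mei-p26, beside 2941, 3071 and 4588 counts of let-7-5p in the same groups. Both of its arms passed as higher in mei-p26 against either group. These are the 2 calls of the list in mei-p26 and the 2 higher ones between the mutants. Both arms reached the count filter only through the mei-p26 libraries, so a call as higher there was largely set in advance.

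**Figure D5:**
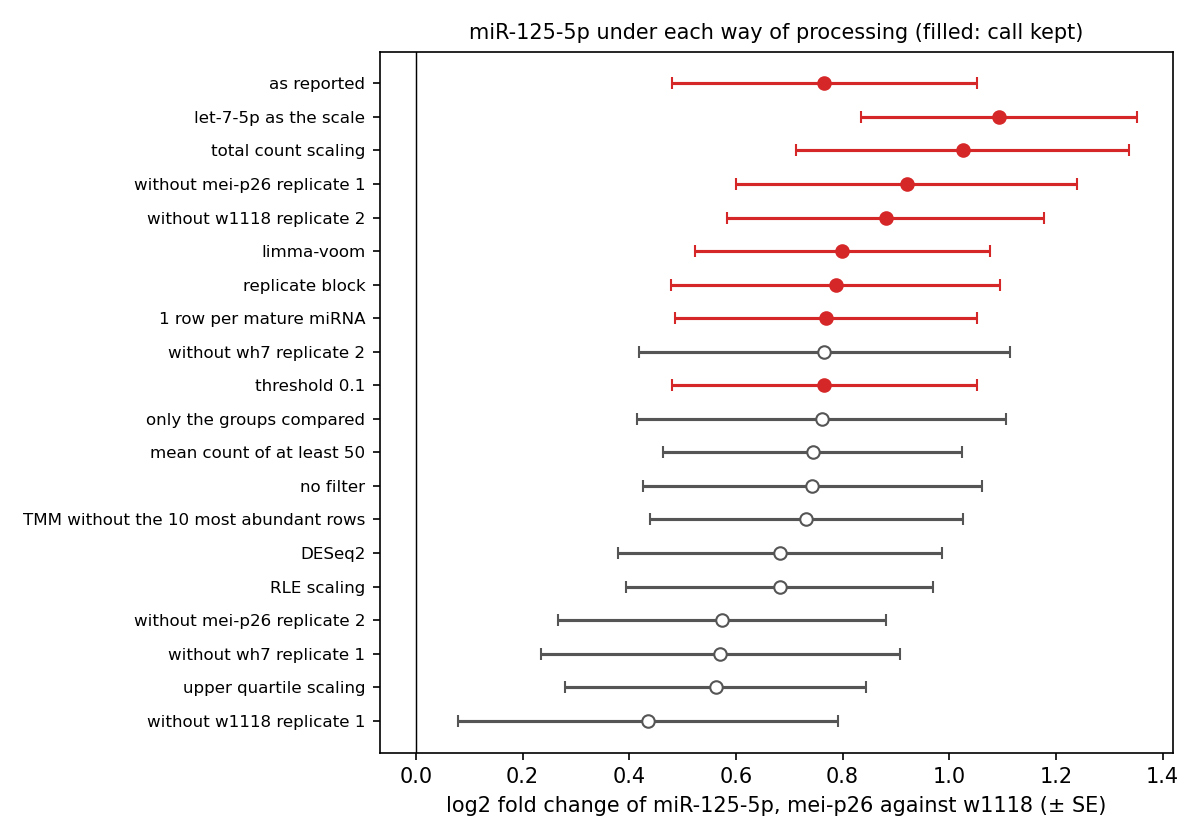
Log2 fold change of miR-125-5p in mei-p26 against w1118 with its SE (horizontal axis) as reported and under each alternative (vertical axis), ordered by size below the reported value. All estimates lie above 0, from 0.43 without w1118 replicate 1 to 1.09 with let-7-5p as the scale, and open points mark settings in which the adjusted p missed the threshold.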

How the data were processed

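MicroRNA libraries (QIAseq kit, single-end reads) were made from total RNA of ovaries, per the labels' protocols. bcl2fastq 2.20, Trimmomatic and build BDGP5 are named in the submitters' processing notes; the aligner, the counting tool and what was done with unique molecular identifiers: not given in the sources used here. Raw read counts were deposited for 474 rows, per the file headers, of which 188 had no count. The authors' deposited CPM matched each count divided by its column sum, within 0.00500. Their deposited signed fold (a score below 0 where lower), p-values and adjusted p-values come from an unstated test and are quoted only as theirs. Control columns headed W118 were taken as w1118.

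All 6 libraries entered 1 fit of edgeR 4.0.16 (R 4.3.3; quasi-likelihood, TMM, filterByExpr with a minimum count of 10), which tested 150 rows; p-values were adjusted by Benjamini-Hochberg over these at 0.05. Arm ratios used limma 3.58.1 with a pseudocount of 1 and a mean of at least 10 counts per arm. Scripts were tested on simulated data. Named are all 6 rows of the complex, the 3 rows nearest in profile to each guide, and listed miRNAs. Members, lists and tests were chosen with earlier results of these data known; the other clusters and the let-7-5p scale were added after values were seen. Sequences and coordinates are not given, because the reference at hand held no miRNA sequences and is of a later build, and a planned search for shared seeds was not run.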

Additional observations from a re-analysis of the deposited data

How the results depend on the processing

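For the let-7 complex, 0 rows passed in wh7 and between the mutants under every alternative run, with 1 exception (miR-125-5p in wh7 on the let-7-5p scale without w1118 replicate 2, edgeR, adjusted p = 0.0477), and 0 arm ratios did. The 1 call in mei-p26 (miR-125-5p) became 0 with DESeq2 1.42.0, RLE scaling, upper-quartile scaling, TMM without the 10 most abundant rows, no filter, a stricter filter (mean count from 50 up), or only the groups compared, and ran from 0 to 1 when 1 library was left out; it was kept with total-count scaling, limma-voom, 1 row per mature miRNA and a threshold of 0.1. Under the stricter filter, the calls over all rows were 26 in mei-p26, 9 in wh7 and 26 between the mutants, against 51, 23 and 41. Leaving out 1 library gave 34 to 59, 10 to 30 and 34 to 55. Total-count scaling moved the median log2 fold change of all rows by 0.27 in mei-p26 and upper-quartile scaling by -0.23.

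Values that did not pass changed sign as follows. let-7-5p between the mutants was -0.0070 under the stricter filter, -0.10 with only the groups compared, -0.11 with upper-quartile scaling and -0.076 to 0.082 with 1 library left out. let-7-3p in mei-p26 was 0.12 with total-count scaling, 0.16 on the let-7-5p scale and -1.02 to 0.34 with 1 library left out; the latter range was -1.35 to 0.18 in wh7 and -0.47 to 0.98 between the mutants. miR-100-5p in mei-p26 was -0.13 with upper-quartile scaling and -0.44 to 0.39 with 1 library left out, and -0.12 to 0.73 in wh7. miR-125-3p in wh7 was 0.032 with total-count scaling, 0.31 on the let-7-5p scale and -0.52 to 0.35 with 1 library left out. The arm ratio of let-7 ran from -0.49 to 0.83 in wh7, -0.61 to 0.65 in mei-p26 and -0.81 to 0.51 between the mutants, and that of mir-125 between the mutants from -0.71 to 0.029. Few 3p counts limit these values; the cause of each change was not tested.

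The labels do not say whether same-numbered libraries have more in common than the number. Their deviations from the group means correlated across rows at -0.33 (w1118 and wh7), -0.02 (w1118 and mei-p26) and 0.09 (wh7 and mei-p26). These values cannot settle whether libraries were prepared together. With a replicate block the calls over all rows were 26 in wh7, 50 in mei-p26 and 41 between the mutants, and miR-125-5p in mei-p26 was at 0.79 ± 0.31 (edgeR, adjusted p = 0.0357); it changed no call of the complex. With the numbers of wh7 crossed, an alternative chosen after seeing the data, 30 rows passed in wh7 and 0 of the complex.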
